A study of Homo sapiens with 10 samples.

Results

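Peaks of RNA polymerase II (Pol II) and of Cdk9 were compared along 17083 protein-coding genes in HCT116, a cell line established from a human colorectal carcinoma. The genes were the autosomal ones of at least 4 kb in the GENCODE annotation of hg19, out of 20136 coding gene symbols in all. Of the rest, 2139 were autosomal and shorter, and 914 lay on chromosomes X or Y. Each gene was divided into 4 zones. The promoter was the annotated 5′ end with 1 kb on each side, and the early body ran from 1 to 5 kb past the 5′ end. The later body ran from there to the 3′ end in the 16072 genes of at least 6 kb, and the last zone covered 0 to 5 kb past the 3′ end. A factor was counted in a zone when one of its deposited peaks overlapped it by at least 1 bp. The body is the early and the later zone together.

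Both libraries came from the same line, with no treatment, genotype or time named in the labels. Cells were crosslinked in 1% formaldehyde for 10 min, and sonication for 50 min gave chromatin of 100 to 300 bp. Total Pol II was precipitated with an antibody labelled N-20 and Cdk9 with one labelled C-20. The series holds 10 libraries, 1 for each antibody or input, so every value below describes 1 library a side, has no replicate check and comes with no test. Intervals are exact Clopper-Pearson 95% intervals and cover counting error only. Read depth is unknown. The Pol II list held 92939 narrow peaks and the Cdk9 list 120115 broad peaks, which together covered 41713231 and 78682769 bp. The Cdk9 list also reached weaker peaks, down to a deposited −log10 q of 1.01 against 1.31 for Pol II.

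Cdk9 is the kinase of the positive transcription elongation factor P-TEFb, in which it pairs with cyclin T1 or T2. Pol II commonly pauses shortly after it starts a gene, held by the factors NELF and DSIF, and P-TEFb phosphorylates these factors and the tail of Pol II when Pol II is released into the gene body. Much P-TEFb is kept inactive by the 7SK ribonucleoprotein, which holds Hexim1 and Larp7, and KAP1 (the TRIM28 protein) is a chromatin protein that binds this complex. Past the polyadenylation site the transcript is cleaved and Pol II is released from DNA within the following kilobases.

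The promoters fell into 4 groups by the factors they carried, and the sequences before the 5′ ends differed between the groups. Genes of 3 of the groups are given here, each with the 120 bases before its annotated 5′ end on the gene's own strand, read from the GRCh37 reference genome. Capitals mark CG dinucleotides. TRIM28 (chr19:59055311-59055430, plus strand) carried both factors and Pol II in all 4 zones. UBE2D1, for a ubiquitin-conjugating enzyme (chr10:60094619-60094738, plus strand), carried both factors at the promoter and no Pol II farther on. RBM34, for an RNA-binding protein (chr1:235324599-235324718, minus strand), had Pol II without Cdk9 at the promoter. SPATA16, a spermatogenesis gene (chr3:172859026-172859145, minus strand), had Cdk9 without Pol II.
TRIM28: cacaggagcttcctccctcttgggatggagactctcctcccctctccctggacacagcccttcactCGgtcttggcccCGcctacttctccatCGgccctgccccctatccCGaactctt
UBE2D1: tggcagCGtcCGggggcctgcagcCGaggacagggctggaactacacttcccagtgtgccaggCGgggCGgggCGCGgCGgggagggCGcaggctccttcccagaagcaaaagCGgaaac
RBM34: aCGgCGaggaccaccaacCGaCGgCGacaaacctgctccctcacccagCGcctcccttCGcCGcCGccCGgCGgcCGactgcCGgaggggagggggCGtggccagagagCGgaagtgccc
SPATA16: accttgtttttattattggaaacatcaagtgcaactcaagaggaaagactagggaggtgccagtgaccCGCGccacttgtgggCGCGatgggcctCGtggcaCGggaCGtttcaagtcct

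Over the whole groups, the 250 bp before the 5′ end held a median of 20.0 CG dinucleotides in the 11649 genes with both factors at the promoter. The median was 13.0 in the 1071 genes with Pol II alone, 6 in the 752 with Cdk9 alone and 2.00 in the 3611 with neither. GC content was 65.2%, 56.4%, 54.8% and 45.2% in the same order. The single genes shown above do not follow the order of the groups. Their 250 bp held 9 CG dinucleotides at TRIM28, 12 at UBE2D1, 19 at RBM34 and 8 at SPATA16. The letters TATAAA, searched on the gene's strand at -40 to -21, stood in 1.03% (0.855 to 1.23) of promoters with both factors and in 1.12% (0.580 to 1.95) of those with Pol II alone. They stood in 4.39% (3.04 to 6.11) of promoters with Cdk9 alone and 4.90% (4.22 to 5.66) of those with neither, against 2.00% of all. Searched on both strands over the whole 250 bp, they stood in 4.84%, 7.10%, 11.6% and 20.6% of the 4 groups, against 8.61% of all. Near the usual TATA position a promoter with Pol II alone thus had about as few matches as one with both factors. A promoter with Cdk9 alone was closer to an empty one in the count of CG dinucleotides. In GC content and in matches over the whole 250 bp it was closer to one with Pol II alone. Another coding gene started within 1 kb at 29.8% of promoters with Pol II alone, 22.3% of those with both, 8.11% with Cdk9 alone and 5.18% with neither.

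The labels describe the cells as endothelial, so marker genes were read in the Pol II list. Pol II was at 13 of 17 measured promoters of colon epithelium genes and at 6 of 14 of endothelial genes, against 74.5% of all genes. The median fold of the occupied promoters, the authors' value for how far a peak stands above its local control, was 77.7 for the epithelial list and 8.03 for the endothelial one. KRT8 and KRT18 of the epithelial list had the same fold of 77.7 and may share 1 peak. CDH1, for E-cadherin, had a promoter Pol II fold of 97.6 and CDX2, an intestinal transcription factor, one of 100.2. In the same list EPCAM (5.18), CLDN4 (3.97), LGR5 (6.69) and CDX1 (8.33) were near or below the endothelial median. The endothelial receptor genes KDR, TEK and TIE1 and the cadherin gene CDH5 had no promoter Pol II peak. The keratin gene KRT20, the villin gene VIL1, ELF3 and MUC13 of the epithelial list had none either, and the endothelial adhesion gene ESAM had a fold of 92.4. Fibroblast markers had Pol II at 6 of 10 promoters with a median fold of 6.28, and blood markers at 1 of 7. These genes were named after their values were seen.

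Pol II and Cdk9 were found at nearly the same share of promoters and parted inside the genes. At the promoter, Pol II was at 74.5% of genes (73.8 to 75.1) and Cdk9 at 72.6% (71.9 to 73.3), a difference of 1.87 percentage points. In the early body the shares were 36.5% (35.8 to 37.2) and 43.3% (42.6 to 44), a Pol II minus Cdk9 difference of -6.82 points. The later body had the widest gap of the 4 zones, 60.8% (60.1 to 61.6) against 76.0% (75.3 to 76.6), or -15.1 points. Past the 3′ end the lists met again, at 41.2% (40.5 to 42.0) and 42.1% (41.3 to 42.8), or -0.855 points. The later body is long, with a median of 32149 bp, so its share of occupied genes cannot be set against that of the shorter zones.

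**Figure D1:**
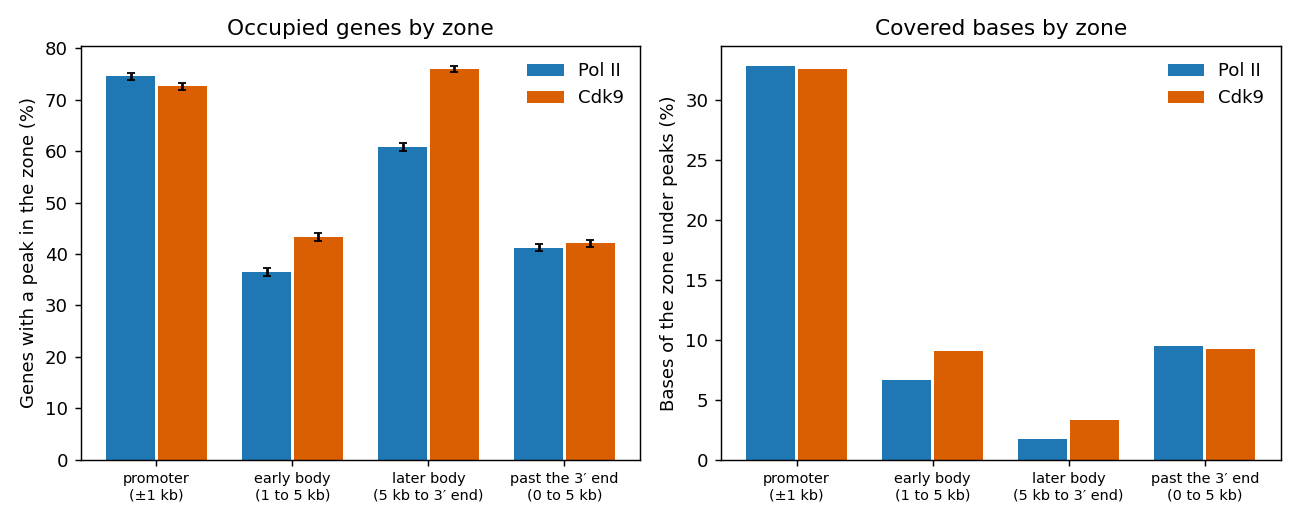
Left, share of genes (%) with a Pol II peak (blue) or a Cdk9 peak (orange) in each zone, with exact 95% intervals as error bars. Right, share of the bases of each zone (%) that lie under peaks. Cdk9 is above Pol II in the early body (43.3% against 36.5%) and later body (76.0% against 60.8%), and the 2 are within 2 points at the promoter and past the 3′ end.

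These differences rest on where each list was ended. With the Cdk9 list cut to the covered bases of the Pol II list, a setting chosen once the data had been seen, Pol II minus Cdk9 was 12.4 points at the promoter, 7.08 in the early body, 11.5 in the later body and 16.7 past the 3′ end. What held in that setting as well was the order between the early body and the zone past the 3′ end.

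Gene length moved with the later-body gap. In the quintile of the shortest genes, of 4008 to 11769 bp, Pol II was in the later body of 45.1% (43.1 to 47.1) and Cdk9 of 45.4% (43.4 to 47.4). In the quintile of the longest, from 102320 bp, the shares were 72.7% (71.1 to 74.2) and 96.6% (95.9 to 97.2). By covered bases the 2 lists were close in the shortest genes, at 13.8% and 15.1% of the later body, and differed in the longest, at 0.684% and 1.96%. Past the 3′ end, Pol II was found at 52.2% of the shortest genes and 25.2% of the longest, and Cdk9 at 53.1% and 27.6%.

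Relative to its own early body, Pol II covered more of the 3′ flank than Cdk9 did. In genes of at least 6 kb, Pol II peaks covered 6.01% of the early body and 9.12% of the 5 kb past the 3′ end, a ratio of 1.52. Cdk9 peaks covered 8.47% and 8.85%, a ratio of 1.05. The Pol II ratio was 1.45 times that of Cdk9. The ratios of the other 3 lists were close to that of Cdk9, at 1.02 for KAP1, 1.06 for Larp7 and 1.00 for Hexim1. The lists of Cdk9, KAP1, Larp7 and Hexim1 all ended at a −log10 q of 1.01 to 1.02, against 1.31 for Pol II. Their median peak widths were 427, 513, 471 and 453 bp, against 287 bp for Pol II. How far these differences between the lists enter the contrast was not tested. Pol II also covered more of the promoter relative to the early body, 5.45 times against 3.83 times for Cdk9, and more of the early body relative to the later body, 3.49 times against 2.57 times. For KAP1 these ratios were 4.83 and 3.15, nearer to those of Pol II. For Larp7 (2.81 and 2.21) and Hexim1 (2.49 and 2.32) they were below those of Cdk9. In genes with no coding neighbour near the window the covered share past the 3′ end was below that of the early body for both, with ratios of 0.731 and 0.590, and their quotient was 1.24. The quotient stayed above 1 in the 10 settings computed, between 1.24 and 2.13.

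The profile around the gene ends placed this difference. At the 5′ end both lists peaked in the 200 bp bin centred 100 bp downstream, where Pol II covered 59.1% of genes and Cdk9 54.5%. Their lowest points farther than 1 kb into the gene were 4.30% for Pol II at 3300 bp and 6.38% for Cdk9 at 3100 bp. At the 3′ end, Cdk9 was highest before the end, at 10.4% in the bin centred on -1700 bp. Pol II was highest after it, at 11.2% in the bin centred on 700 bp, and came down to 6.16% at 7900 bp, where Cdk9 still covered 8.50%. In genes without coding neighbours Pol II again had its highest bin after the end, 4.65% at 900 bp, and was at 1.89% at 5700 bp, while Cdk9 was highest at -1700 bp with 6.83%. In genes of at least 20 kb the highest bins were 8.92% at 1300 bp for Pol II and 8.15% at -1700 bp for Cdk9.

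**Figure D2:**
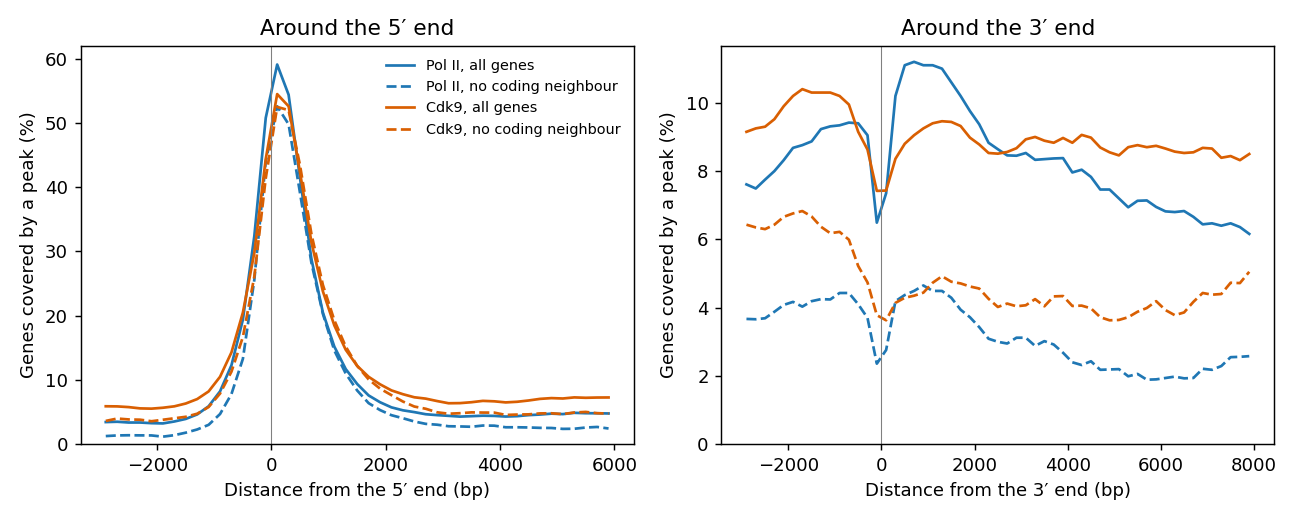
Share of genes of at least 6 kb (%) covered by a Pol II peak (blue) or a Cdk9 peak (orange) in 200 bp bins, against the distance in bp from the annotated 5′ end (left) and 3′ end (right). Solid lines are all 16072 genes and dashed lines those without coding neighbours. Pol II is highest 700 bp past the 3′ end at 11.2%, and Cdk9 is highest 1700 bp before it at 10.4%.

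Coverage also increased toward the 3′ end inside long genes. When the later body of the 11213 genes of at least 20 kb was cut into 5 equal parts, Pol II covered 1.19%, 1.12%, 1.19%, 1.40% and 2.36% from the first to the last. Cdk9 covered 2.83%, 2.67%, 2.74%, 2.95% and 3.93%. By covered bases both were highest in the part that ends at the 3′ end, with Pol II at about 2 times its level in the first part and Cdk9 at a smaller multiple. The share of genes with a peak went from 29.7% in the first part to 38.5% in the last for Pol II. For Cdk9 it was level, at 52.1% and 51.7%.

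AATAAA, the core of the usual polyadenylation signal, was read in the last 30 bases of each gene. It was searched on the gene's strand only and stood in 49.4% (48.2 to 50.6) of the 7042 genes with Pol II past the 3′ end and in 51.2% (50.3 to 52.2) of the 10041 without, against 50.5% of all. The share was 50.3% (47.9 to 52.7) where Pol II had no Cdk9 beside it in that zone and 49.1% (47.8 to 50.5) where it had. The AATAAA share was thus much alike with and without Pol II in the flank. Given here are the last 30 bases of 4 genes with Pol II in all zones, on the gene's strand of GRCh37, with AATAAA in capitals. They lie at chr19:59062060-59062089 (plus) for TRIM28, chr22:39708887-39708916 (minus) for RPL3, chr7:75956116-75956145 (minus) for YWHAG and chr4:1694458-1694487 (minus) for SLBP, which has no match.
TRIM28: atttAATAAAaacttcaccagttcctcagg
RPL3: ggtctcAATAAAagttattttccactgaca
YWHAG: tacattgagcaAATAAActtacagatctga
SLBP: gtgagagctgacatgtttggagggtcagaa

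The genes of highest promoter fold show how far the 2 lists can part along a gene with Pol II from end to end. These 6 led the genes with Pol II in all 4 zones and Cdk9 at the promoter. TRIM28, which encodes KAP1, is 6659 bp long on chromosome 19 and led with a promoter fold of 176. Its later-body Pol II fold was 29.0 and that past the 3′ end 82.8, with Cdk9 in every zone at folds of 5.67, 5.67, 3.29 and 3.34. Folds are not comparable between the lists, and a fold repeated in the promoter and early body belongs to 1 peak that spans both. Starts of other genes within the flank were not looked up for single genes, so a flank peak may belong to a neighbouring gene. RPL3, for a protein of the large ribosomal subunit, had Pol II folds of 167 at the promoter, 14.5 in the later body and 31.1 past the end. Pol II peaks covered 90.3% of its later body, which held no Cdk9 peak, and Cdk9 came back past the end with a fold of 3.42.

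YWHAG, for a 14-3-3 protein, had 7 Pol II peaks in the later body and 6 past the 3′ end, and Cdk9 at the promoter alone, with a fold of 6.46. SLBP, for the protein that binds the stem-loop of histone mRNAs, had Pol II folds of 169, 7.38 and 8.19 at the promoter, later body and flank. Its flank held 8 Pol II peaks and no Cdk9 peak. Another coding gene, TACC3, starts within 1 kb of the 5′ end of SLBP, so the promoter peak may be shared. FAM83D, for a mitotic spindle protein, had a promoter Pol II fold of 165, 2 Pol II peaks in the flank and no Cdk9 there. HAPSTR1, a stress response gene with the same promoter fold of 165, had 1 Cdk9 peak in the flank beside 4 of Pol II.

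Among genes of at least 10 kb, the 6 with most of the later body under Pol II peaks were 10010 to 19957 bp long and carried both factors. Pol II peaks covered 100.0% of the later body of PTOV1 and 99.2% of that of FASN, the fatty acid synthase gene. They covered 99.0% of the later body of DGAT1, an enzyme gene of triglyceride synthesis, and 98.0% of that of DVL1, a Wnt signalling gene. CHTF18, for a DNA clamp loader subunit, had 96.0% and MAFK, a small MAF transcription factor gene, 95.7%. Cdk9 covered between 66.7% and 100.0% of the later body in these 6. At FASN a Pol II peak of 22401 bp (fold 128) covered all but the 3′ part of the gene, where further Pol II peaks lay, and a single Cdk9 peak of 28726 bp (fold 5.26) spanned it whole.

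Ranked by Cdk9 instead, several genes tied at the top, FASN among them, and the first 6 in genome order were taken. These genes, ACAP3, DVL1, ABCA2, CHTF18, CCDC154 and E4F1, had 100.0% of the later body under Cdk9, and Pol II covered between 56.8% and 98.0%. The lowest of these was CCDC154, with 6 Pol II peaks there and a fold of 8.96. ABCA2, for a membrane transporter, had 13 separate Pol II peaks covering 89.6% of a later body that 1 Cdk9 peak spanned. The broad layout of the Cdk9 list can join neighbouring stretches that the narrow layout keeps apart.

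Other promoters carried strong Pol II with no Pol II farther on. The highest promoter Pol II folds with both factors at the promoter and no Pol II in the body or flank were at ZCWPW1 (153), UBE2D1 (152), MTMR10 (151), ENSG00000283321 (150.3), ENOPH1 (150.1) and ALG6 (149). ZCWPW1 starts within 1 kb of MEPCE, the 7SK capping enzyme gene, which runs the other way and shares the same Pol II peak, and ENOPH1 starts within 1 kb of HNRNPDL. At UBE2D1 the Pol II peak ran over 846 bp and the Cdk9 peak over 781 bp, and neither list had a peak in the rest of the gene. MTMR10, a myotubularin-related gene, was bare in the same way over its 52688 bp. ALG6, for an enzyme of N-glycosylation, had Cdk9 in the early body (2.75) and later body (3.98) without Pol II. Cdk9 was also in the later body of ZCWPW1 (2.92), ENSG00000283321 (2.78) and ENOPH1 (2.77). Over all genes of at least 6 kb, 14.0% (13.4 to 14.5) had Pol II at the promoter alone and 17.0% (16.5 to 17.6) had it in all 4 zones. For Cdk9 the shares were 6.83% (6.44 to 7.23) and 17.9% (17.3 to 18.5).

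The 2 factors mostly occupied the same genes, and the tie was looser away from the promoter. Cdk9 was present at 91.6% (91.1 to 92.1) of promoters with Pol II and 17.2% (16.1 to 18.4) of those without. In the early body the shares were 81.7% (80.7 to 82.6) and 21.3% (20.5 to 22). Past the 3′ end they were 75.5% (74.5 to 76.5) and 18.6% (17.8 to 19.4). In the long later body, Cdk9 was in 92.8% (92.2 to 93.3) of genes with Pol II and in 49.9% (48.7 to 51.1) of genes without. Seen from Cdk9, Pol II was at 93.9% of its promoters, 68.8% of its early bodies, 74.3% of its later bodies and 74.0% of its 3′ flanks.

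Where both were at a promoter, they lay over the same bases. The strongest Pol II and Cdk9 peaks of the window overlapped in 97.4% (97.1 to 97.7) of 11649 genes, and the Cdk9 peak held the Pol II summit in 94.2% (93.8 to 94.7). The summit of Pol II had a median position of 103 bp past the 5′ end. Peak middles had medians of 155 bp for Pol II and 191 bp for Cdk9, with widths of 828 and 942 bp. The Cdk9 peak was the wider one in 48.1% of genes and reached farther downstream in 41.6% (40.7 to 42.5).

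Most genes with Pol II in the body had Cdk9 at the promoter. Pol II was in the body of 11619 genes (68.0% of all) and Cdk9 in that of 80.8%. Of the 11619, 9360 (80.6%, 79.8 to 81.3) had a promoter Cdk9 peak, against 55.7% (54.3 to 57.0) of the 5464 without body Pol II. Promoter Pol II was split in almost the same way, at 82.6% and 57.1%. Where Pol II was both in the body and at the promoter, 92.7% (92.1 to 93.2) of 9598 genes had promoter Cdk9. Where body Pol II came without promoter Pol II, 23.1% (21.2 to 25.0) of 2021 genes had it.

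The 2259 genes with body Pol II and no promoter Cdk9 mostly lacked Pol II at the annotated promoter. Pol II was at 31.2% (29.3 to 33.1) of their promoters, KAP1 at 11.7%, Larp7 at 34.4% and Hexim1 at 47.6%. In the 9360 genes with promoter Cdk9 the same shares were 95%, 91.6%, 98.1% and 99.3%. Within the body, however, the 2 sets were much alike, with Cdk9 in 93.8% (92.7 to 94.7) and 94.3% (93.8 to 94.7), KAP1 in 81.8% and 83.2%, and Larp7 in 96.8% and 98.2%. A Cdk9 peak lay at the start of another transcript of the gene in 57.9% (55.9 to 60.0) of the 2259. In the 704 of them with promoter Pol II the share was 45.6% (41.9 to 49.4). No share over all genes is set beside these values, and most of the 2259 had Cdk9 in the body, where other starts can lie. Pol II past the 3′ end was present in 39.0% (36.9 to 41.0) of the 2259 and in 55.4% (54.3 to 56.4) of those with promoter Cdk9.

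Among genes with promoter Pol II, body Pol II was present in 76.3% (75.6 to 77.1) of the 11649 with promoter Cdk9 and in 65.7% (62.8 to 68.6) of the 1071 without, a difference of 10.6 points. The difference was 14.1 points in the early body (44.9% against 30.8%), 7.81 in the later body (67.5% against 59.7%) and 2.29 past the 3′ end (48.4% against 46.1%). The interval for the flank without Cdk9, 43.1% to 49.2%, took in the value with it. With peaks touching the promoter left out of the body, the difference was 7.18 points. With each peak placed in a zone by its middle, which also changes the genes counted as having promoter Pol II or Cdk9, it was -4.10 points.

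The strength of promoter Pol II moved with this comparison. Its median fold was 44.1 with promoter Cdk9 and 12.4 without, and Cdk9 was at 83.0%, 83.2%, 94.8%, 98.0% and 99.0% of promoters over quintiles of ascending Pol II fold. The body differences within these quintiles were 4.31, 8.76, 4.84, 8.42 and -13.0 points in the same order, with a mean of 5.95 when weighted by the genes without promoter Cdk9, which are few in the upper quintiles. In the lowest quintile body Pol II was in 67.4% (65.3 to 69.4) of genes with promoter Cdk9 and 63.0% (58.3 to 67.6) of those without. In the second the shares were 72.8% (70.8 to 74.7) and 64.0% (59.3 to 68.6). In the highest they were 83.0% and 96.0%, the latter from 24 of 25 genes (79.6 to 99.9). Past the 3′ end the lowest quintile went the other way, with Pol II in 29.7% (27.8 to 31.7) of genes with promoter Cdk9 and 42.7% (38 to 47.5) of those without.

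**Figure D3:**
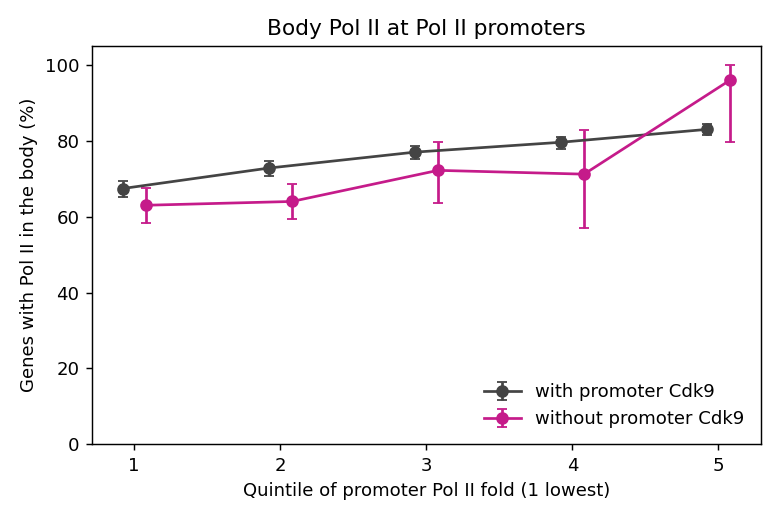
Share of genes with promoter Pol II that also had Pol II in the body (%), by quintile of promoter Pol II fold, for genes with (grey) and without (magenta) a promoter Cdk9 peak, with exact 95% intervals. The share with promoter Cdk9 goes from 67.4% to 83.0%, and the intervals of the 2 sets overlap in all but the second quintile.

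The strongest body Pol II fold had a median of 13.8 in genes with promoter Pol II and Cdk9 and 11.0 in those without the latter, beside promoter medians of 44.1 and 12.4. The strongest body fold divided by the promoter fold had a median of 0.674 in 8894 genes with promoter Cdk9 and 0.974 in 704 without, a ratio in which 1 peak spanning both zones gives 1. The body fold was the higher one in 20.7% (19.8 to 21.5) and 42.9% (39.2 to 46.6). The lower promoter fold of the second set enters this ratio directly.

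The strongest promoters with body Pol II and no promoter Cdk9 were SRC, KRBA2, SLC16A1, APLP2, MTMR2 and RBM34, with Pol II folds from 125 to 108. In 3 of them the Pol II peak only just reached into the promoter window. SRC, a tyrosine kinase gene, had 1.50% of its promoter window under the Pol II peak, MTMR2, a lipid phosphatase gene, 2.20%, and APLP2, of the amyloid precursor family, 0.05%. In each the same Pol II peak went on into the early body, where Cdk9 was present with folds of 4.85, 4.74 and 4.86. SLC16A1, for a lactate transporter, had 17.9% of the window covered by a Pol II peak that also went on into the early body, where Cdk9 had a fold of 5.82. SRC, MTMR2, APLP2 and SLC16A1 had Cdk9 at another transcript start of the gene, and KRBA2 and RBM34 did not.

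RBM34 and KRBA2 had Pol II peaks well inside the window, covering 31.4% and 33.7% of it. At RBM34 the peak of 629 bp had a fold of 108, and Larp7 and Hexim1 were present without KAP1. Cdk9 appeared in its early body (2.78), later body (3.68) and flank (3.93), where Pol II had folds of 13.7 in the later body and 87.4 in the flank. Starts of other genes in that flank were not looked up. The 3′ end of the ribosomal protein gene RPL26 lies within 1 kb of the KRBA2 promoter, so that its Pol II peak cannot be assigned to one gene.

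Promoters with Cdk9 and no Pol II had small Cdk9 peaks. Their median Cdk9 fold was 3.47 against 4.67 where both factors were present, and the median width was 450 bp against 942 bp. The highest Cdk9 folds in this group were at SPATA16 (8.74), MAFF (7.05), MPO (6.26), CLEC9A (6.19), MS4A13 (6.10) and CCT3 (6.03). SPATA16, the dendritic cell receptor gene CLEC9A and MS4A13 had Cdk9 peaks of 297, 213 and 309 bp, with KAP1, Larp7 and Hexim1 also present and no Pol II in any zone. At MAFF, a small MAF transcription factor gene, the Cdk9 peak covered 0.850% of the window and lay mainly in the early body, together with Pol II at a fold of 157. At MPO, the myeloperoxidase gene, 1.50% of the window was covered. CCT3, a chaperonin subunit gene, had 16 Pol II peaks in its later body.

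Counted by peaks instead of genes, Cdk9 was scarcest on Pol II peaks past the 3′ end. Each peak was placed by its middle and in a single zone, with the promoter taken first, then the early body, the later body and the flank. A flank peak that also lay in a measured promoter or body of another gene was thus not counted in the flank. Cdk9 overlapped 85.7% (85.1 to 86.3) of 13947 promoter Pol II peaks, 65.2% (64.2 to 66.3) of 8070 in the early body and 64.9% (64.5 to 65.4) of 46968 in the later body. It overlapped 45.8% (44.6 to 47.0) of 6358 past the 3′ end and 74.4% (73.7 to 75) of 16349 elsewhere. Median Pol II folds were alike in the 3 zones outside the promoter, at 6.33, 6.09 and 6.12, as were the widths of 295, 263 and 286 bp. The other lists had the same low point, with KAP1 on 56.6%, 54.7% and 34.0% of these peaks, Larp7 on 79.2%, 82.4% and 64.0%, and Hexim1 on 87.5%, 87.6% and 75.5%. Leaving out peaks within 1 kb of any transcript start gave Cdk9 shares of 56.2%, 61.5% and 41.3%.

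The zone past the 3′ end had the lowest share of the 4 zones in each quintile of Pol II fold. In the lowest quintile of Pol II fold within each zone, with medians of 4.15 in the early body, the later body and the flank, Cdk9 overlapped 44.4% (41.9 to 46.8), 42.6% (41.6 to 43.6) and 25.7% (23.3 to 28.2). In the highest quintile the shares were 91.9% (90.5 to 93.2), 89.0% (88.4 to 89.7) and 79.7% (77.4 to 81.9), at median folds of 27.1, 14.8 and 17.6, which are not matched. The early and later body were close, and in the quintile below the highest the later body had the higher share, 77.2% (76.4 to 78.1) against 73.7% (71.5 to 75.9). Fold and width moved together, and how far width adds to the overlap was not tested. From the side of Cdk9, Pol II overlapped 92.4% of its promoter peaks, 52.8% in the early body, 35.5% (35.1 to 35.9) in the later body, 48.1% (46.5 to 49.6) past the 3′ end and 21.8% elsewhere. When both lists were held to a −log10 q of 5 or more, which left 5308 Cdk9 peaks, Cdk9 was on 3.96% of later-body Pol II peaks.

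**Figure D4:**
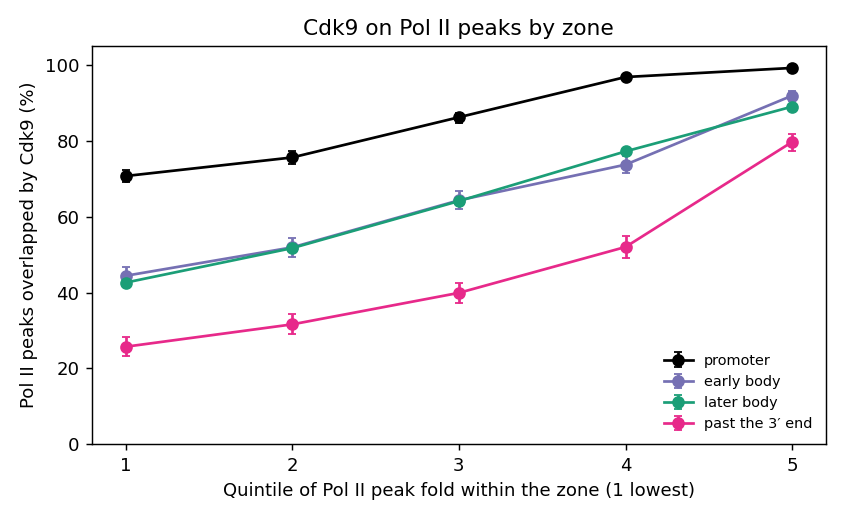
Share of Pol II peaks overlapped by a Cdk9 peak (%), by quintile of Pol II peak fold within each zone, with exact 95% intervals. Peaks past the 3′ end are those with their middle outside every measured promoter and body. Promoter peaks are highest throughout, from 70.7% to 99.2%, and peaks past the 3′ end are lowest throughout, from 25.7% to 79.7%.

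Ribosomal protein genes had Pol II in nearly every body, and Cdk9 in a smaller share of them. Most of their products build the ribosome. The list was taken by gene symbol and also holds like-named genes, RPL7L1, RPL22L1, RPL26L1, RPL39L, RPL3L and RPS27L among them. Of its 88 genes, 56 were autosomal and of at least 4 kb, with a median length of 7646 bp. Pol II was at 54 of 56 promoters, in 51 of 56 early bodies (91.1%, 80.4 to 97.0), in 33 of 35 later bodies (94.3%, 80.8 to 99.3) and in 45 of 56 flanks. Cdk9 was at 45 of 56 promoters, in 19 early bodies (33.9%, 21.8 to 47.8), in 17 of 35 later bodies (48.6%, 31.4 to 66.0) and in 31 flanks. Over all genes the Pol II shares were 74.5%, 36.5%, 60.8% and 41.2% in the 4 zones, and the list lay above them in each. The Cdk9 shares over all genes were 72.6%, 43.3%, 76.0% and 42.1%. The list was above these at the promoter (80.4%, 67.6 to 89.8) and in the flank (55.4%, 41.5 to 68.7) and below them in the early and later body. Its intervals hold the share over all genes at the promoter, in the early body and in the flank, and leave it out in the later body. In the shortest quintile of genes the flank shares were 52.2% for Pol II and 53.1% for Cdk9. Both factors were in the body of 29 genes, Pol II alone in 25, Cdk9 alone in 0 and neither in 2. By covered bases, Pol II took 31.2% of the early body and Cdk9 6.69%, and past the 3′ end they took 23.7% and 11.2%.

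Pol II minus Cdk9 in these genes was 57.1 points in the early body and 45.7 in the later body, and it was positive in every setting computed. Among all genes in the highest quintile of promoter Pol II fold, the early-body shares were 54.7% for Pol II and 49.8% for Cdk9. Among the shortest quintile of genes they were 50.9% and 54.6%, and the later-body shares there were 45.1% and 45.4%, so that the Cdk9 share of the list in the later body was close to that of short genes. Promoter Pol II in the list had a median fold of 65.6. Reads from near-identical processed copies of these genes may be lost or shared in alignment, which was not tested. Of the 54 with body Pol II, 43 had promoter Cdk9, near the 80.6% over all genes with body Pol II.

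**Figure D5:**
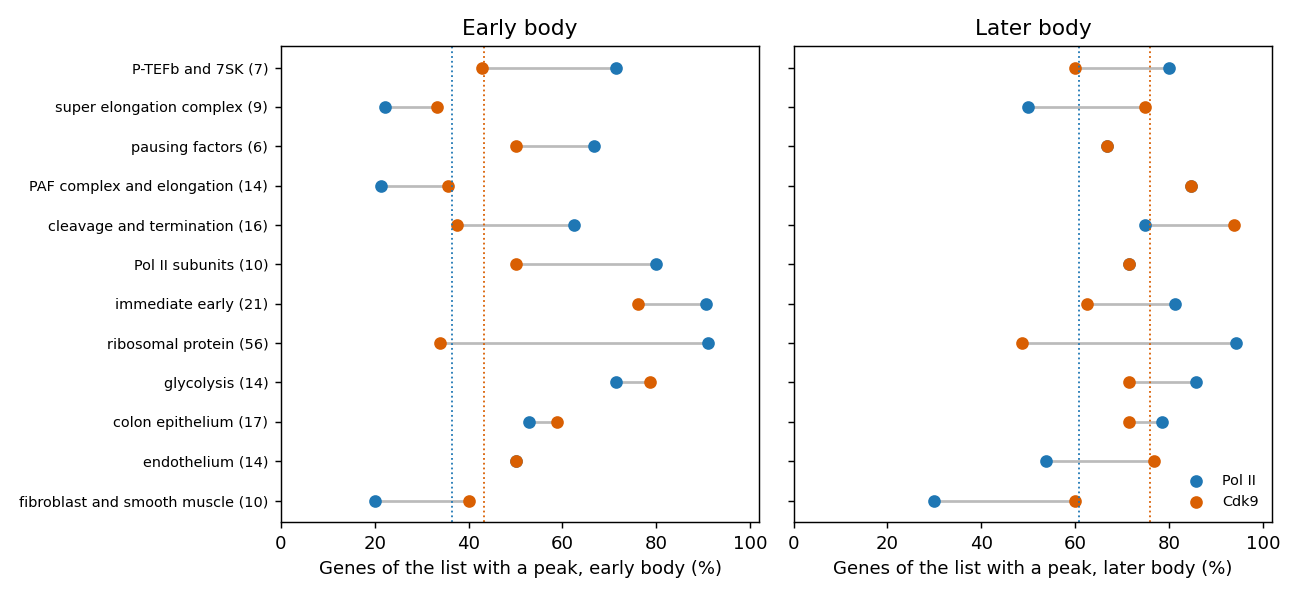
Share of the genes of each list (%) with a Pol II peak (blue) or a Cdk9 peak (orange) in the early body (left) and later body (right), with the number of measured genes in brackets (fewer in the later body). Dotted lines give the share over all genes. Ribosomal protein genes have Pol II at 91.1% and 94.3% and Cdk9 at 33.9% and 48.6%.

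Immediate early genes, which respond within minutes to growth signals, carried both factors. Of 21 measured genes, 19 had Pol II and 19 had Cdk9 at the promoter, and in the early body the counts were 19 and 16. Over all genes the shares were 74.5% and 72.6% at the promoter and 36.5% and 43.3% in the early body. The median promoter Pol II fold was 107. FOSL1, an AP-1 subunit gene, had folds of 131 for Pol II and 8.21 for Cdk9 at the promoter and both factors in every zone. DUSP5, a phosphatase gene, had Pol II in all 4 zones and Cdk9 at the promoter alone (7.87). Of the 14 glycolysis genes, 10 had Pol II and 11 had Cdk9 in the early body, against the same 36.5% and 43.3% of all genes, with both in every zone at SLC2A1, PFKL, PFKP and PKM. LDHA, for lactate dehydrogenase, had Pol II in all 4 zones and Cdk9 at the promoter and flank only. These examples were named after their values were seen.

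Of the 7 measured P-TEFb and 7SK genes, 6 had promoter Pol II and 5 promoter Cdk9, near the 74.5% and 72.6% of all genes. CDK9, on chromosome 9 at 130547958 to 130553071, had Pol II folds of 53.4 at its promoter and 9.13 past its 3′ end, and Cdk9 there with 5.01 and 3.27. Its cyclin partner genes differed. CCNT2 had both factors at the promoter (62.6 and 5.44), whereas CCNT1 had Pol II in all 4 zones (30.5 at the promoter) and Cdk9 past the 3′ end alone (3.76). HEXIM2, for a P-TEFb inhibitor, had a promoter Pol II fold of 73.2 and Cdk9 in every zone. MEPCE had 153 and shares its peak with ZCWPW1. No Pol II or Cdk9 peak was found in any zone of LARP7.

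All 9 measured genes of the super elongation complex had promoter Pol II and 8 had promoter Cdk9, the exception being ELL3. Of these genes, 4 of 8 had Pol II and 6 of 8 had Cdk9 in the later body, near the 60.8% and 76.0% of all genes. AFF1, a scaffold gene of the complex, had a later-body Pol II fold of 119, above that at its promoter (85.5), and a later-body Cdk9 fold of 5.18 with another coding gene start in its body. MLLT1 had 35 Pol II peaks in the later body and ELL 23. AFF1, AFF4, ELL2, EAF1, EAF2 and MLLT3 had no Pol II peak past the 3′ end. All 6 pausing factor genes had both factors at the promoter and Pol II past the 3′ end, and 3 of the 6 had Cdk9 past it. Over all genes, Pol II and Cdk9 were at 74.5% and 72.6% of promoters and 41.2% and 42.1% of flanks. SUPT5H, for the large subunit of DSIF, had a Pol II fold of 114 in its flank, and NELFB, for a subunit of NELF, one of 81.4. Whether other genes start in these flanks was not looked up.

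Genes of the cleavage and termination machinery had Pol II at 16 of 16 promoters and Cdk9 at 14. Pol II was in the early body of 10 and Cdk9 of 6, and in the later body Cdk9 was in 15 and Pol II in 12. Over all genes the Pol II and Cdk9 shares were 36.5% and 43.3% in the early body and 60.8% and 76.0% in the later body, where the list had 75% and 93.8%. XRN2, for the nuclease that trims the transcript behind Pol II, had a promoter Pol II fold of 84.2, no Pol II peak in its later body and both factors past its 3′ end. PCF11, for a termination factor, had Pol II in all 4 zones and Cdk9 at the promoter alone. Of the 14 genes of the PAF complex and related elongation factors, 13 had promoter Pol II and 13 promoter Cdk9, and 3 and 5 had them in the early body, shares of 21.4% (4.66 to 50.8) and 35.7% (12.8 to 64.9) whose intervals hold the background. The 10 measured Pol II subunit genes all had promoter Pol II and 7 had promoter Cdk9, against 74.5% and 72.6% of all genes.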

How the data were processed

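Peaks came from ChIP-seq of HCT116 cells, 1 library per antibody. The submitters' processing notes name Bowtie 1.1, hg19 and MACS2. The MACS2 version, control library and settings, not given in the sources used here, could move where each list ends. The fold of a peak (column 7) is the ratio deposited by the authors and was used within 1 list only. The −log10 p and −log10 q (columns 8 and 9) are as deposited by the authors and served to cut lists. Coordinates are 1-based hg19. No peak passed a chromosome end of GRCh37, and 2 Cdk9 peaks off chromosomes 1 to 22, X and Y were unused.

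Genes came from GENCODE release 44 on GRCh37, 1 entry per symbol. Zones were counted with Python 3.11.15, numpy 2.4.6, pandas 2.3.3 and scipy 1.17.1 (exact intervals), and the counting was tested on simulated intervals. Motifs were searched on the gene's strand, with overlaps allowed, except that TATAAA over the whole 250 bp was searched on both strands. With 1 library a side no test was run. The members, gene lists and rules were chosen with earlier results of these data known.

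Named genes, of at least 6 kb, were the 6 of highest promoter Pol II fold with Pol II in all zones and promoter Cdk9, with body Pol II and no promoter Cdk9, or with both at the promoter and no Pol II beyond. To these came the 6 of highest Cdk9 fold at promoters without Pol II, the 6 with most later body covered by each factor (from 10 kb, ties in genome order), and the genes of P-TEFb and 7SK, the super elongation complex and pausing factors. HEXIM1 is shorter than 4 kb. Some genes that the rule takes are left out of the text. Alternatives were stricter or equal list sizes, other overlap rules, promoter windows and gene sets. The libraries of Ser5P Pol II, histone marks and input were not analysed here.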

Additional observations from a re-analysis of the deposited data

How the results depend on the processing

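No paired analysis was possible because each antibody has 1 library and no result comes from a test. Values follow as Pol II minus Cdk9 in points (promoter, early body, later body, flank past the 3′ end), main values 1.87, -6.82, -15.1 and -0.855. At −log10 q of at least 5 they were 55.5, 25.8, 43.6 and 32.0; with 20000 peaks per list 14.0, -1.09, -4.67 and 5.38; with Cdk9 cut to the length of the Pol II list 3.42, -2.60, -9.38 and 4.72. Settings added after the data were seen gave 3.64, -2.32, -8.68 and 5.28 (q of at most 0.05 in both lists) and 12.4, 7.08, 11.5 and 16.7 (equal covered bases). Without coding neighbours they were -0.713, -8.29, -21.7 and -5.39. Promoter, early body and flank gave 3.76, -1.88 and 0.404 with peaks as middles and 250 bp a side, 3.34, -5.55 and 0.697 with a 200 bp or 50% overlap, and 5.33, -1.87 and 1.31 by middles. Other promoter values were 2.90 (500 bp window) and 0.498 (any transcript start). The early body gave -2.02 without peaks touching the promoter; early body, later body and flank gave -3.10, -17.6 and 1.61 away from any start; early and later body gave -7.99 and -20.0 in genes of at least 20 kb.

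Promoter Cdk9 among genes with body Pol II (80.6%) ranged from 20.1 at −log10 q of at least 5 and 56.0 with 20000 peaks, through 70.4 (equal bases), 72.3 (middles), 75.8 (500 bp), 76.7 and 76.7 (250 bp, overlap), 78.9 (common q), 79.1 (equal length), 79.3 (20 kb), 79.6 (no neighbours), 79.7 (no promoter peaks) and 82.4 (away from starts), to 91.8 with any start. The body difference by promoter Cdk9 (10.6) was -4.10 by middles, 0.337 with 250 bp, 5.95 within fold quintiles, 7.06 with 500 bp, 7.18 without promoter peaks, 15.8 without neighbours and 20.0 with any start. Cdk9 on later-body Pol II peaks (64.9%) was 3.96 at −log10 q of at least 5, 42.4 with 20000 peaks, 44.5 (equal bases), 46.8 (250 bp), 61.3 and 61.3 (overlap, common q), 61.5 (away from starts), 61.7 (equal length) and 67.3 (no neighbours).

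The flank over early body ratio of covered shares, added later with its settings, was 1.52 for Pol II, 2.47 away from starts, 0.731 without neighbours and 1.67 from 20 kb. For Cdk9 it was 1.05, then 0.719 at −log10 q of at least 5, 0.859 with 20000 peaks, 1.55 away from starts, 0.590 without neighbours and 0.983 at equal bases. The quotient of 1.45 was 2.13 at −log10 q of at least 5, 1.86 with 20000 peaks and 1.24 without neighbours. The causes of these shifts were not tested. Unknown depth and the differing list ends limit every level set between the lists.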

Other observations

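Coding genes outside the set were measured in the same way. Of 2139 autosomal genes shorter than 4 kb, Pol II was at the promoter of 50.9% (exact 95% interval 48.8 to 53.1) and Cdk9 of 53.7% (51.6 to 55.8). Past the 3′ end of these short genes, the shares were 38.8% (36.7 to 40.9) and 44.2% (42.1 to 46.3).

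Of 687 genes of at least 4 kb on chromosome X, Pol II was at the promoter of 50.2% (46.4 to 54.0) and Cdk9 of 44.8% (41.1 to 48.6). In the body of the chromosome X genes the shares were 36.1% (32.5 to 39.8) and 43.7% (39.9 to 47.5), and past the 3′ end 17.0% (14.3 to 20.1) and 13.4% (10.9 to 16.2).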
